A study of Homo sapiens with 12 samples.

Results

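The desmosome genes described here were 9 genes chosen by symbol: DSP, PKP1, PKP2, PKP3, JUP, DSG2, DSC2, PPL and EVPL. All 9 were found among the 62426 genes of the deposited count table, of which 40400 had any count. RNA had been sequenced from HCT116 and SW480, established human colon cancer cell lines, in 12 libraries that fall into 6 groups of 2. Each line was represented by parental cells, by cells stably transfected with a plasmid for the standard CD44 isoform (CD44s-OE) and by cells stably transfected with a plasmid for the CD44v6 isoform (CD44v6-OE). The labels call both plasmids pcDNA, whereas the reagent list of the study names pcDNA for CD44s and pUC57 for CD44v6. The transfected cells had been selected with Geneticin and the parental cells are the only controls, so plasmid, selection and CD44 isoform cannot be told apart in a comparison with parental cells. The 2 transfected groups share the selection, but since the sources differ on the vector, isoform and plasmid cannot be told apart in their direct comparison either. The names CD44s-OE and CD44v6-OE are those of the labels. CD44, a hyaluronan receptor at the cell surface, did not pass the test in any of the 6 comparisons within a line, with log2 fold changes from -0.34 to 0.46. Its gene-level count sums all isoforms. Against parental cells the log2 fold changes were 0.01 (CD44s-OE) and -0.09 (CD44v6-OE) in HCT116 and 0.12 and -0.34 in SW480. These counts thus did not show the overexpression that the labels name, and the reason was not tested.

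Desmosomes are junctions that hold neighbouring epithelial cells together and tie the membrane to the keratin filaments inside. Desmosomal cadherins, here DSG2 (desmoglein 2) and DSC2 (desmocollin 2), bind those of the next cell. Armadillo proteins bind the cadherin tails: JUP (plakoglobin) and the plakophilins PKP1, PKP2 and PKP3, which also gather desmoplakin at the plaque. DSP (desmoplakin) is the plakin that anchors keratin filaments, while PPL (periplakin) and EVPL (envoplakin) are plakins of the plaque and of the cornified envelope. DSG2, DSC2 and PKP2 are the usual forms of simple epithelia such as the intestinal lining, whereas PKP1 is mostly known from the skin and other stratified epithelia.

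In hg19, the build of the count table, DSP (ENSG00000096696) lies on chromosome 6 from 7541850 to 7586947 and PKP3 (ENSG00000184363) on chromosome 11 from 392614 to 404908. PPL (ENSG00000118898) lies on chromosome 16 from 4932508 to 5010742, PKP2 (ENSG00000057294) on chromosome 12 from 32943689 to 33049711 and PKP1 (ENSG00000081277) on chromosome 1 from 201252580 to 201302121. JUP (ENSG00000173801, 39910856 to 39943183) and EVPL (ENSG00000167880, 74000583 to 74023387) are both on chromosome 17, and DSC2 (ENSG00000134755, 28638806 to 28682485) and DSG2 (ENSG00000046604, 29078140 to 29128971) both on chromosome 18. Counts were strand-specific and summed over exons. Exons of 2 other genes overlapped those of members, a DSG2 antisense gene with at most 4 counts and an unnamed gene within DSC2 with 0 counts in all libraries.

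Libraries held 43102156 to 52811889 counts. Nothing in the labels says that the 2 libraries of a group came from separate cultures, so p-values measure the spread between these libraries, which may be technical. The count table names the libraries of both OE groups, and not the parental ones, as pools, without saying what was pooled. Of 9 colon epithelium markers, 6 to 8 had more than 6 counts in a group, and their summed level was 6025 to 8424 CPM (counts scaled to the same library total) in HCT116 and 8185 to 18923 CPM in SW480, with CDH17 at 0 in all HCT116 groups and in parental SW480 and CDX1 at 0 in both HCT116 OE groups. Summed markers of leukocytes (0.493 to 1.24 CPM in HCT116, 1.52 to 2.55 CPM in parental SW480 and 3.74 to 5.44 CPM in the SW480 OE groups), endothelium (0.664 to 2.12 CPM) and cardiac muscle (0 to 0.399 CPM) were low everywhere, and those of fibroblasts were at 33.2 to 56.4 CPM in HCT116 CD44s-OE, 31.7 to 34.99 CPM in HCT116 CD44v6-OE, 13.7 to 19.2 CPM in parental HCT116 and at most 5.24 CPM in SW480. Of the leukocyte markers, 2 of 3 tested passed as higher in SW480 CD44s-OE against parental, where 2.5% of all genes did. Of 3 fibroblast markers tested, 2 passed as higher and 1 as lower in HCT116 CD44s-OE (8.45% and 5.71% of all genes). In HCT116 CD44v6-OE, 2 of 3 passed as higher and 0 as lower (1.44% and 0.0981% of all genes). The part of these markers in the results below was not tested. In such bulk RNA, fewer cells with a transcript and less of it per cell cannot be told apart.

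JUP and PKP3 were the most abundant desmosome transcripts, and PKP1 and DSC2 the rarest. Levels of different genes were compared as CPM per kilobase of exon. In parental HCT116, JUP stood at 139 ± 2.48 (SD, n = 2) on this scale, followed by PKP3 at 54.1 ± 1.44, DSP at 25.6 ± 0.131 and DSG2 at 21.7 ± 0.977. EVPL (15.1 ± 0.667) and PPL (13.6 ± 3.81) overlapped between libraries, and below them came PKP2 at 4.16 ± 1.04, DSC2 at 1.95 ± 0.123 and PKP1 at 0.00777 ± 0.00235. All other neighbours in this order were separated in both libraries. In parental SW480, PKP3 (61.4 ± 10.3) and JUP (58.8 ± 8.84) overlapped at the top. DSP (24.8 ± 1.3), PPL (20.7 ± 1.42) and PKP2 (11.2 ± 1.73) came next, then EVPL (7.50 ± 0.425) and DSG2 (6.29 ± 1.37), which overlapped. PKP1 (0.617 ± 0.0377) and DSC2 (0.0847 ± 0.0203) closed the order.

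**Figure D1:**
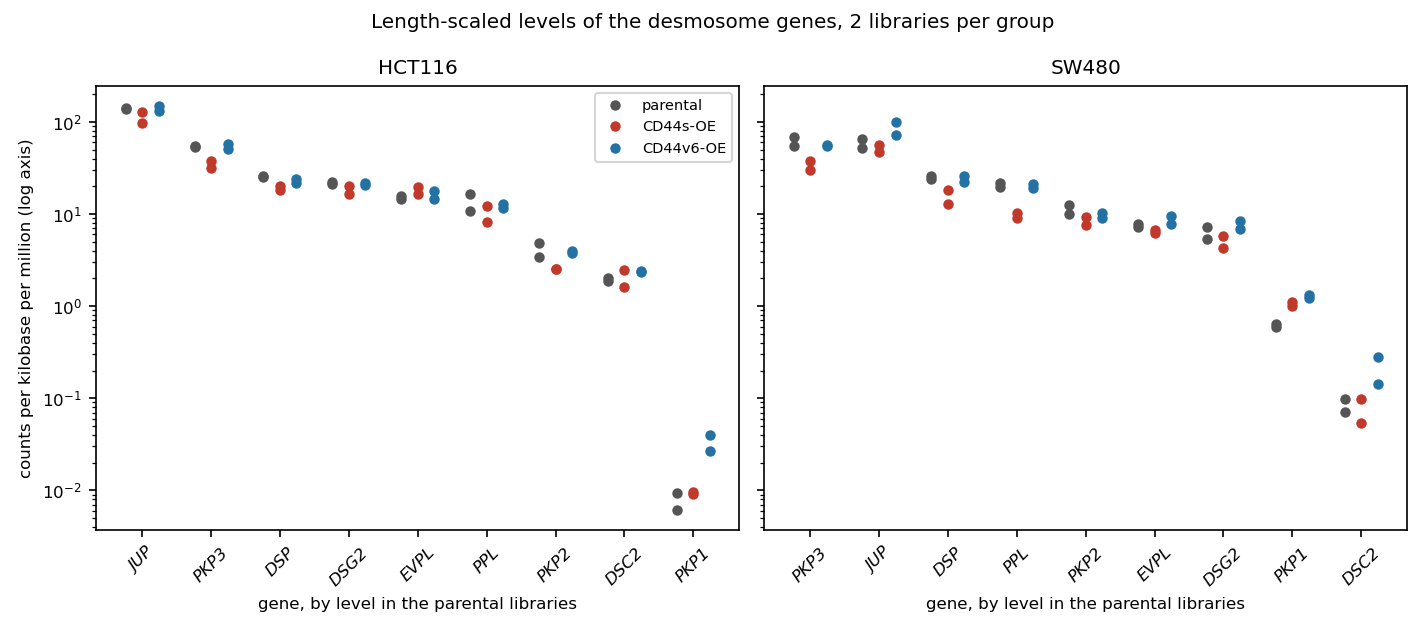
Length-scaled level of each desmosome gene (CPM per kilobase, log axis) in HCT116 on the left and SW480 on the right, with 2 points per group for its 2 libraries and genes ordered by their level in the parental libraries. PKP1 is lowest in HCT116 and DSC2 is lowest in SW480, while JUP and PKP3 lead in both lines.

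Parental HCT116 and parental SW480 differed in most desmosome genes. Between them, 7 of the 9 members passed the edgeR quasi-likelihood test at a Benjamini-Hochberg adjusted p under 0.1, 3 higher in SW480 and 4 lower, where 31.7% of all 19567 genes tested were higher and 29.2% lower. With so large a background, the count of members says little about the desmosome in particular, and the sizes below are the description. The median log2 difference of the members was -0.05 against 0.04 over all genes.

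PKP1 was nearly absent from HCT116. It had 2 and 3 counts in the parental libraries, 3 and 3 in those labelled CD44s-OE and 13 and 9 in those labelled CD44v6-OE, where 6 counts, or 3 read pairs, is the most that a true level of 0 is taken to allow. In SW480 its counts were 145 and 200 in the parental libraries, 298 and 351 with CD44s and 378 and 349 with CD44v6. All 6 SW480 libraries lay above all 6 of HCT116. The ratio of the pooled parental counts, scaled by library, was 80.0. A 95% binomial interval of 34.0 to 248 covers counting error only and takes each count as independent. Both reads of a pair appear to be counted, so this interval is too narrow. The adjusted p from edgeR was 2.75e-08. KRT5, a keratin of basal epithelia that was named after its values were seen, was likewise far higher in SW480, at 1667 to 4636 CPM against 0.228 to 2.07 CPM in HCT116. It made up most of a summed squamous marker level of 1672 to 4648 CPM in SW480 against 5.32 to 10.1 CPM in HCT116, while DSC3 of the same list went the other way, at 0.04 to 0.655 CPM in SW480 and 3.15 to 8.25 CPM in HCT116. KRT6A was at 3.17 to 11.97 CPM in SW480 and 0.12 to 0.967 CPM in HCT116, and TP63, KRT14, DSG3 and IVL stayed below 1 CPM in every library. The part of these genes in the PKP1 result was not tested.

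DSC2 showed the opposite order. Its level was 23.2 and 25.4 CPM in parental HCT116 but 1.24 and 0.879 CPM in parental SW480, the latter from 49 and 44 counts. The log2 difference was -4.53 (SE 0.36), a 23.1-fold lower level in SW480 (adjusted p = 1.59e-07). DSG2, its partner cadherin, was at 127 and 136 CPM in parental HCT116 and at 44.0 and 32.2 CPM in parental SW480, a log2 difference of -1.79 (SE 0.19, adjusted p = 2.99e-06). Because both cadherins were lower, their summed length-scaled level was 23.7 ± 1.10 in parental HCT116 and 6.38 ± 1.39 in parental SW480 (SD, n = 2). The ratio of DSG2 to DSC2 was 11.2 ± 0.202 in parental HCT116 and 74.5 ± 1.71 in parental SW480.

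JUP, which binds the tails of both cadherins, was at 696 and 678 CPM in parental HCT116 and at 321 and 259 CPM in parental SW480 (log2 difference -1.24, SE 0.19, adjusted p = 8.40e-05). EVPL was at 115 and 108 CPM against 57.4 and 53.0 CPM (log2 difference -1.01, SE 0.16, adjusted p = 8.54e-05). Both were lower in each SW480 library than in any parental HCT116 library. PKP2 went the other way, at 23.9 and 34.2 CPM in parental HCT116 and 69.6 and 86.6 CPM in parental SW480, a 2.69-fold higher level (log2 difference 1.43, SE 0.19, adjusted p = 2.23e-05).

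PPL, the partner of EVPL, was at 125 and 84.0 CPM in parental HCT116 and at 167 and 152 CPM in parental SW480 (log2 difference 0.61, SE 0.20, adjusted p = 0.0222). The 2 HCT116 libraries stood apart from each other, and without the second of them the difference was 0.34 (adjusted p = 0.246). Per length, PPL exceeded EVPL 2.76 ± 0.0325-fold in parental SW480, and the ratio was 0.896 ± 0.212 in parental HCT116 (SD, n = 2). DSP and PKP3 did not pass. DSP was at 256 and 258 CPM in parental HCT116 and at 258 and 240 CPM in parental SW480, with a 95% interval of the log2 difference from -0.39 to 0.30. PKP3 was at 209 and 201 CPM in HCT116 and at 261 and 206 CPM in SW480, with an interval from -0.16 to 0.53.

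**Figure D2:**
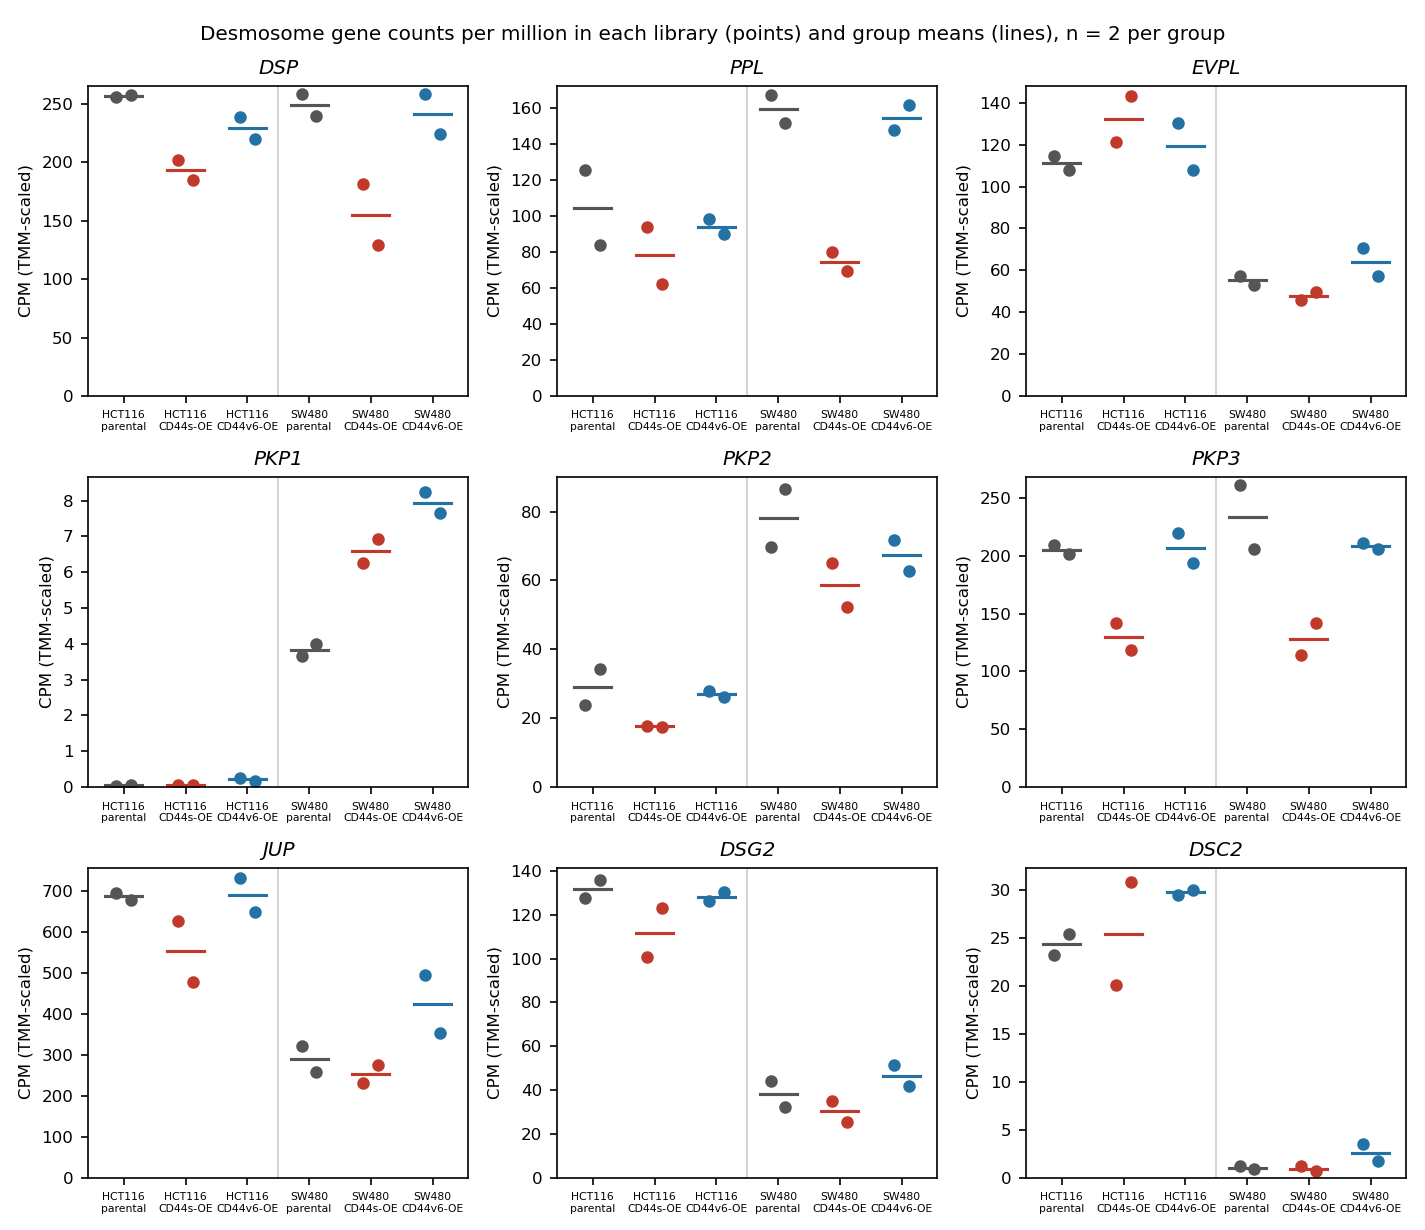
CPM (TMM-scaled, linear axes from 0) of each desmosome gene in the 12 libraries, with a point per library and a line at the mean of the 2 libraries of a group. PKP3 and DSP sit lower in both CD44s-OE groups than in the other groups of the same line, PPL does so in SW480, PKP1 is near 0 in HCT116 and DSC2 is low in SW480.

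The second question of the design was how cells given each isoform differed from parental cells within a line. In HCT116, libraries labelled CD44s-OE had less PKP3, PKP2 and DSP RNA than parental libraries. Of the 8 members tested, with PKP1 below the filter on low counts, 3 passed as lower and 0 as higher, where 5.71% of all 17335 genes tested were lower and 8.45% higher. The members' median log2 fold change was -0.36 and that of all genes 0.04.

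PKP3 was at 209 and 201 CPM in parental HCT116 and at 142 and 118 CPM in CD44s-OE, without overlap. The log2 fold change was -0.66 (SE 0.14, adjusted p = 0.0240), a 1.58-fold lower level. PKP2 was at 23.9 and 34.2 CPM in parental cells and at 17.8 and 17.5 CPM in CD44s-OE (log2 fold change -0.72, SE 0.19, adjusted p = 0.0495). Its parental libraries spread more widely than its CD44s-OE libraries. DSP was at 256 and 258 CPM in parental cells and at 202 and 185 CPM in CD44s-OE (log2 fold change -0.41, SE 0.12, adjusted p = 0.0714).

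The other 5 members tested did not pass. JUP was at 628 and 479 CPM in CD44s-OE against 696 and 678 CPM in parental cells (log2 fold change -0.31, adjusted p = 0.225), and both libraries were below the parental ones. DSG2 was at 101 and 123 CPM against 127 and 136 CPM, and PPL at 94.0 and 62.5 CPM against 125 and 84.0 CPM. Their log2 fold changes of -0.23 and -0.42 had intervals that reached above 0, up to 0.07 and 0.08. EVPL, at 121 and 143 CPM against 115 and 108 CPM, had a log2 fold change of 0.25 (95% interval -0.07 to 0.58). DSC2 was at 20.1 and 30.8 CPM in CD44s-OE, on either side of the parental libraries, with a log2 fold change of 0.07.

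The HCT116 calls depended on single libraries. A fit without a library leaves its group with 1 library, which is then assumed to vary like the other groups, here and in the fits without a library below. Without parental replicate 1 the adjusted p was 0.112 for PKP3 and 0.201 for DSP, and without parental replicate 2 it was 0.160 for PKP3, 0.358 for PKP2 and 0.302 for DSP. Without either CD44v6-OE library, or with parental and CD44s-OE libraries alone, PKP3 alone passed, and PKP2 was at 0.119 to 0.125 and DSP at 0.174. Without CD44s-OE replicate 1, the log2 fold changes were -0.52 for JUP, -0.75 for PPL and 0.36 for EVPL. Without CD44s-OE replicate 2, that of DSG2 was -0.40. Far more of all genes passed in these 2 fits than in the main fit, so further calls in them are not given. PKP3, PKP2 and DSP stayed lower in all 13 alternatives, with log2 fold changes of -0.80 to -0.55, -0.96 to -0.44 and -0.48 to -0.36.

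In SW480, the CD44s-OE libraries had less PPL, PKP3 and DSP than the parental ones. All 9 members were tested. Of these, 3 passed as lower and 0 as higher, where 2.22% of all 17539 genes were lower and 2.5% higher. The median was -0.35 for the members and 0.00217 for all genes, on the log2 scale. The summed colon epithelium markers were also lower in these libraries, at 8185 to 10081 CPM in CD44s-OE against 17069 to 18923 CPM in parental SW480. In SW480 CD44v6-OE the sum was 13715 to 15017 CPM, also below parental. Of 7 such markers tested in CD44s-OE, 5 passed as lower and 1 as higher. The part of these markers in the falls of PPL, PKP3 and DSP was not tested.

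PPL had the largest fall among the members that passed in the 6 comparisons within a line. It was at 167 and 152 CPM in parental SW480 and at 79.8 and 69.5 CPM in CD44s-OE, without overlap, a 2.17-fold lower level (log2 fold change -1.11, SE 0.16, adjusted p = 0.00400). This call remained in all 13 alternatives, at adjusted p from 6.65e-08 to 0.0981. PKP3 was at 261 and 206 CPM in parental cells and at 114 and 142 CPM in CD44s-OE (log2 fold change -0.89, SE 0.17, adjusted p = 0.0226), a 1.85-fold lower level. DSP was at 258 and 240 CPM in parental cells and at 181 and 129 CPM in CD44s-OE (log2 fold change -0.70, SE 0.18, adjusted p = 0.0726).

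PKP1 had the opposite sign in SW480. Parental cells had 3.66 and 4.00 CPM, the CD44s-OE libraries 6.26 and 6.94 CPM and the CD44v6-OE libraries 8.25 and 7.64 CPM, with no overlap between the 3 groups. For CD44s-OE its log2 fold change was 0.76 (SE 0.23) with an adjusted p of 0.121, and for CD44v6-OE 1.02 (SE 0.23) with an adjusted p of 0.141, so it did not pass in either. The 95% intervals were 0.25 to 1.28 and 0.51 to 1.54. DESeq2 gave adjusted p-values of 0.0725 and 0.0157. PKP2 (-0.43, interval -0.82 to -0.04), DSG2 (-0.35), EVPL (-0.23), JUP (-0.21) and DSC2 (-0.18) did not pass in CD44s-OE.

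Of the SW480 calls in CD44s-OE, that of DSP was lost without CD44s-OE replicate 2 (adjusted p = 0.526), without CD44v6-OE replicate 1 or 2 (0.153 and 0.156) and with parental and CD44s-OE libraries alone (0.164). That of PKP3 was lost without CD44s-OE replicate 1 (0.169) or 2 (0.116). Without parental replicate 1, the log2 fold change of PKP2 was -0.58, and without parental replicate 2 that of PKP1 was 0.83. More of all genes passed in these 2 fits than in the main fit, so further calls in them are not given.

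Libraries labelled CD44v6-OE gave no call among the members in either line. In HCT116, 0 of 8 members passed where 1.53% of all genes did in either direction. Their log2 fold changes lay between -0.17 for DSP and 0.29 for DSC2. Among them 0 had an unadjusted p under 0.05, where 11.2% of all genes did. DESeq2 also gave 0 calls. In SW480, 0 of 9 passed where 0.57% of all genes did. An unadjusted p under 0.05 was found for 3 members, all higher, and for 8.71% of all genes in either direction. The 3 members were PKP1, JUP and DSC2, and DESeq2 called 1 of them, PKP1.

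JUP was at 496 and 355 CPM in SW480 CD44v6-OE against 321 and 259 CPM in parental cells, without overlap (log2 fold change 0.52, interval 0.10 to 0.95, adjusted p = 0.441). DSC2 was at 3.49 and 1.77 CPM against 1.24 and 0.879 CPM (log2 fold change 1.29, interval 0.28 to 2.29, adjusted p = 0.407), from 160 and 81 counts against 49 and 44. The groups did not overlap, but the 2 CD44v6-OE libraries stood well apart from each other. Without SW480 parental replicate 1, the log2 fold changes of PKP1 and JUP were 0.96 and 0.69, and without replicate 2 that of PKP1 was 1.09. More of all genes passed in these 2 fits than in the main fit, so further calls in them are not given.

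In the direct comparison of isoforms, log2 fold changes of CD44s-OE against CD44v6-OE were below 0 for 7 of 8 members in HCT116 and for 9 of 9 in SW480, of which 1 and 2 passed. It shares the CD44s-OE libraries with the comparison above, so it is no independent repeat of it. The members are measured in the same libraries, so their signs are not independent of each other. In HCT116, 1 of 8 members passed as lower, PKP3, where 0.392% of all genes were lower and 0.421% higher. PKP3 stood at 142 and 118 CPM with CD44s against 219 and 193 CPM with CD44v6 (log2 fold change -0.67, SE 0.14, adjusted p = 0.0934). PKP2 was at 17.8 and 17.5 CPM against 27.7 and 26.0 CPM and did not pass (-0.61, SE 0.19, adjusted p = 0.269). The members' median log2 fold change was -0.25, against 0.00889 for all genes, of which 48.8% were below 0. The call of PKP3 was lost without either parental library (log2 fold change -0.67 in both fits) and without either CD44v6-OE library (-0.58 and -0.76). Without CD44s-OE replicate 1, the log2 fold changes were -0.62 for PKP2 and -0.53 for JUP. Without replicate 2 they were -0.61 for PKP2 and -0.58 for DSC2. Far more of all genes passed without a CD44s-OE library than in the main fit, so further calls in those fits are not given.

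In SW480, 2 of 9 members passed as lower, PPL and PKP3, where 1.55% of all genes were lower and 0.57% higher. PPL stood at 79.8 and 69.5 CPM with CD44s against 148 and 162 CPM with CD44v6 (log2 fold change -1.04, SE 0.16, adjusted p = 0.00722). PKP3 was at 114 and 142 CPM against 211 and 206 CPM (log2 fold change -0.70, SE 0.17, adjusted p = 0.0957), a call that was lost with RLE size factors (adjusted p = 0.109) and with a replicate block (adjusted p = 0.149). All 9 fold changes were below 0, with a median of -0.63, against 48.5% of all genes below 0 and a median of 0.01.

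JUP stood at 232 and 276 CPM with CD44s against 496 and 355 CPM with CD44v6 and missed the threshold (log2 fold change -0.73, interval -1.16 to -0.31, adjusted p = 0.124). DSP (-0.63, adjusted p = 0.168), DSG2 (-0.61, adjusted p = 0.282) and DSC2 (-1.46, interval -2.47 to -0.46, adjusted p = 0.213) did not pass either. With the 4 libraries of the 2 OE groups alone, 6 members passed as lower: PKP3, PPL, JUP, DSC2, DSG2 and DSP. In that fit 821 of all 17140 genes passed as lower, against 271 of 17539 in the main fit. The gain in calls was thus not particular to the members. In CD44s-OE without replicate 2, or CD44v6-OE without replicate 2, 0 members passed, with PPL at an adjusted p of 0.146 and 0.133. Without replicate 1 of either group, 1 passed, PPL.

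**Figure D3:**
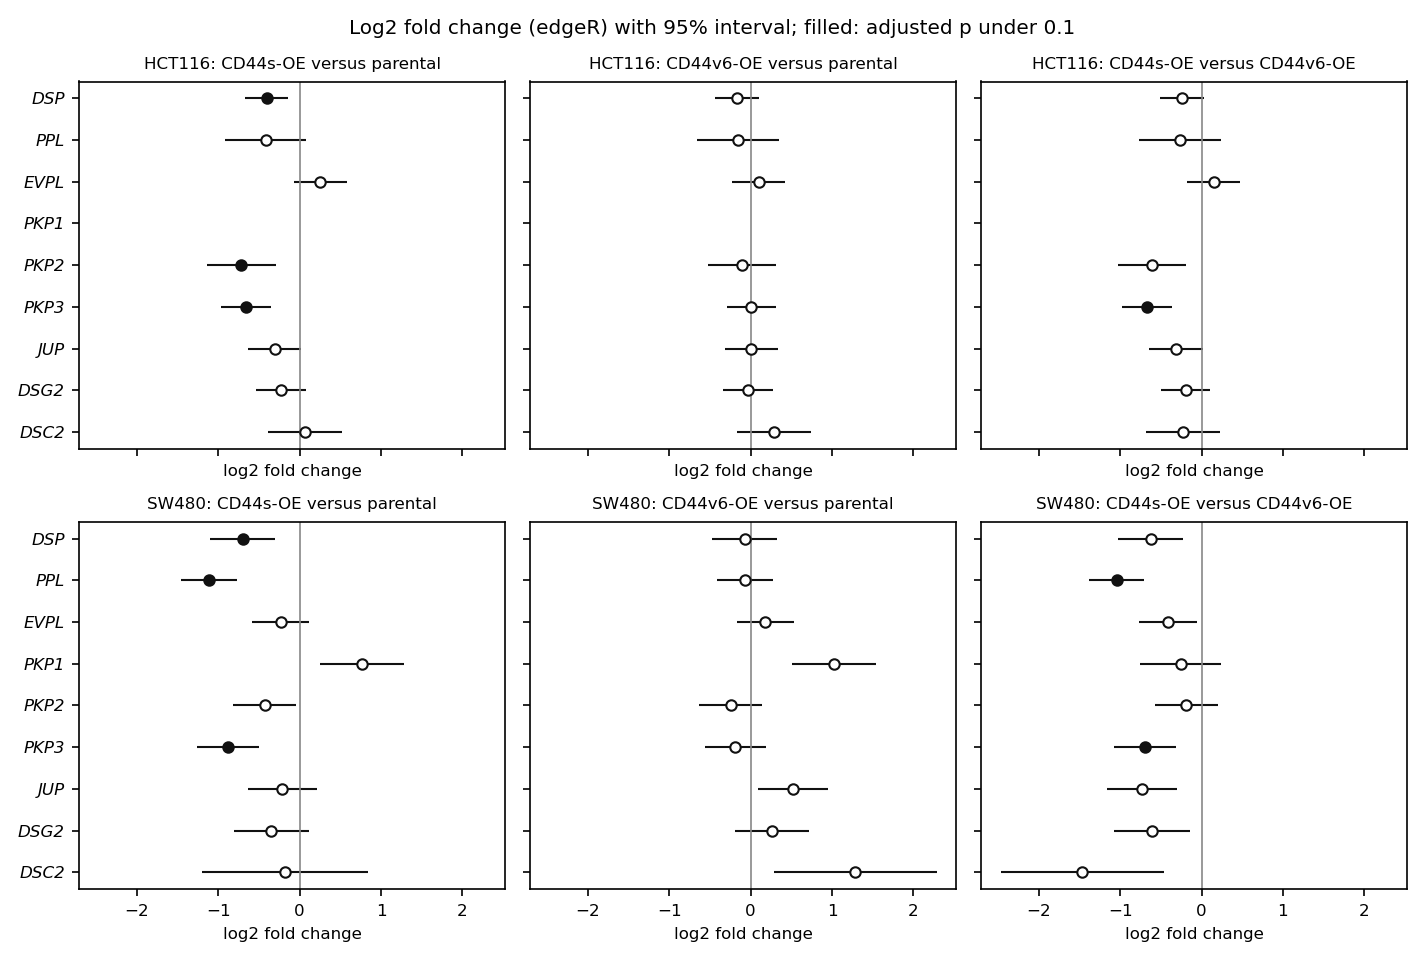
Log2 fold change with its 95% interval for each desmosome gene (rows) in the 3 comparisons of HCT116 (top) and of SW480 (bottom), with filled circles where the adjusted p was under 0.1. PKP3 is filled to the left of 0 in both comparisons of CD44s-OE in both lines, and no circle is filled for CD44v6-OE against parental; PKP1 was not tested in HCT116.

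Whether a change differed between lines was tested as an interaction. For CD44s-OE against parental, 0 of 9 members passed where 3.92% of all genes did. An unadjusted p under 0.05 was found for 1 member and for 16.1% of all genes. The member was PPL (SW480 minus HCT116, log2 difference -0.67, interval -1.29 to -0.05, adjusted p = 0.263). Without HCT116 CD44s-OE replicate 2, PPL passed (-0.93, adjusted p = 0.0776). The fall of PPL in SW480 and its absence from the calls in HCT116 are therefore not shown to differ. For PKP3 the interval of the line difference was -0.69 to 0.28 and for DSP -0.76 to 0.21. For CD44v6-OE against parental, 0 of 9 passed (0.409% of all genes), with DSC2 at an unadjusted p of 0.0411 (log2 difference 1.03, adjusted p = 0.539). Of all genes, 8.86% had an unadjusted p under 0.05 there. For the isoform contrast 0 of 9 passed (0.491% of all genes). An unadjusted p under 0.05 was found for 8.41% of all genes and for 4 members. These were DSC2 (-1.25), PPL (-0.79), EVPL (-0.57) and PKP1 (1.51), all with an adjusted p of 0.442 to 0.456. DESeq2 gave 0 calls in all 3.

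The summed and relative levels show how the junction's RNA changed in composition. The summed length-scaled level of the 9 genes was 275 ± 6.11 in parental HCT116, 217 ± 24.5 in CD44s-OE and 273 ± 20.5 in CD44v6-OE (SD, n = 2). In SW480 it was 191 ± 21.9, 131 ± 4.90 and 213 ± 25.7. Both CD44s-OE libraries lay below all other libraries of their line, and no test was made on this sum. JUP supplied 50.5% of the sum in parental HCT116 and 30.6% in parental SW480, and PKP3 19.6% and 32.0%.

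PKP3 was the main plakophilin transcript throughout. The plakophilin sum was 58.2 ± 0.393 in parental HCT116, 36.8 ± 4.34 in CD44s-OE and 58.3 ± 5.04 in CD44v6-OE. In SW480 the corresponding sums were 73.3 ± 8.53, 43.2 ± 4.03 and 66.0 ± 1.93 CPM per kilobase. PKP3 made up 91.5% to 94.1% of this sum in the HCT116 libraries and 74.3% to 86.7% in the SW480 libraries. PKP1 made up 0.744% and 0.957% of the plakophilin sum in the parental SW480 libraries and 2.5% and 2.43% in those of CD44s-OE, from a higher PKP1 level over a smaller sum. The DSG2 to DSC2 ratio in SW480 CD44v6-OE was 30.3 and 48.9, below the 73.3 and 75.7 of the parental libraries and the 59.3 and 78.9 of CD44s-OE.

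**Figure D4:**
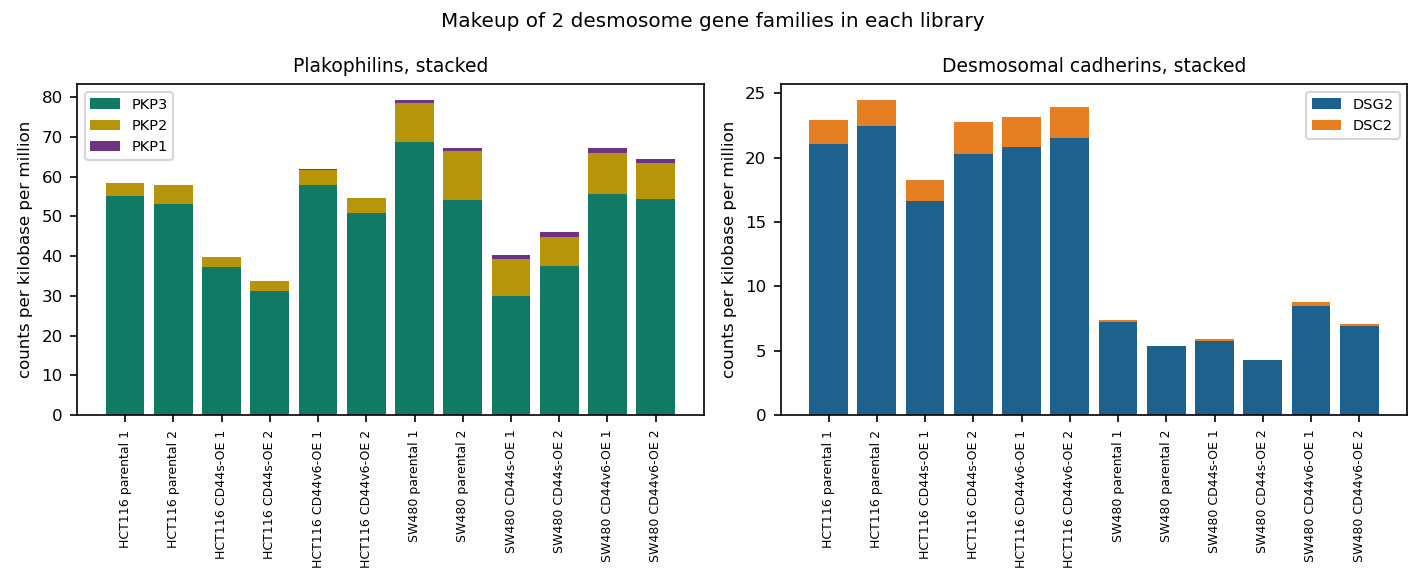
Stacked length-scaled levels (CPM per kilobase, axes from 0) of the plakophilins on the left and of the cadherins DSG2 and DSC2 on the right, with 1 bar per library. PKP3 dominates every plakophilin bar, the plakophilin bars of CD44s-OE are lower in both lines, and the cadherin bars of SW480 reach 4.30 to 8.75 against 18.2 to 24.5 in HCT116.

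The members did not all vary together. After subtracting each line's mean from log2 CPM, the Pearson correlation over the 12 libraries was above 0 for 33 of 36 pairs of members, with a median of 0.465. These are descriptions, since the libraries share groups and scaling. DSP and PPL (r = 0.873), DSG2 and DSC2 (r = 0.872), PKP3 and PPL (r = 0.839) and DSP and PKP3 (r = 0.796) were most alike. PKP1 stood apart, with r from -0.144 with DSP to 0.393 with DSC2. Its HCT116 values came from only 2 to 13 counts a library, so these correlations may reflect noise at low counts. PKP2 and EVPL had r = -0.192. The mean of the standardized members was lowest in the CD44s-OE libraries, at -0.558 and -0.603 in HCT116 and -0.821 and -1.24 in SW480. It was highest in the first CD44v6-OE library of each line, at 0.639 and 1.29.

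**Figure D5:**
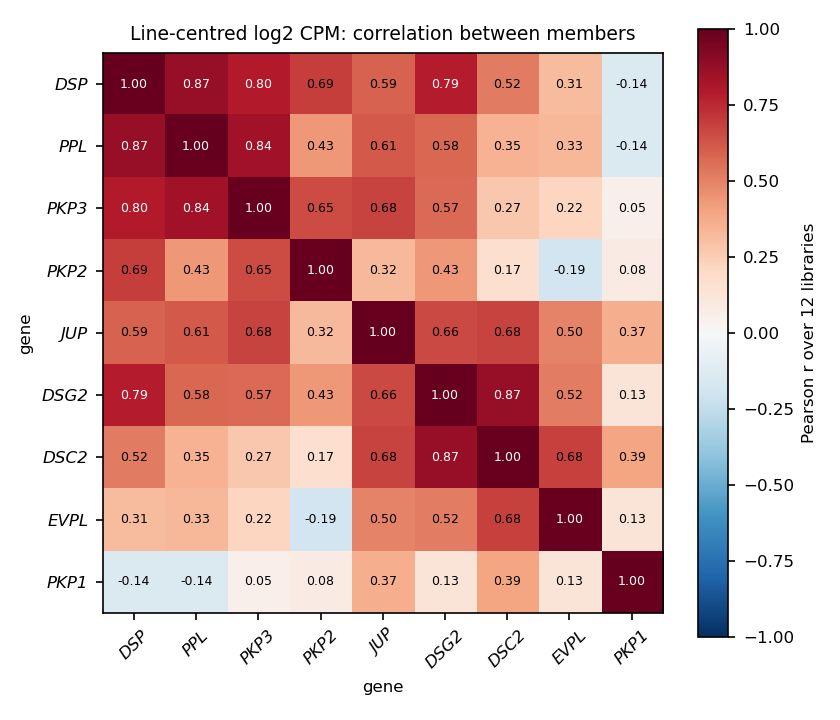
Pearson correlation between desmosome genes (both axes) over the 12 libraries after subtraction of each line's mean log2 CPM, from -1 in blue to 1 in red. DSP, PPL and PKP3 form one group of high values and DSG2 and DSC2 another (r = 0.872). The row of PKP1, which had only 2 to 13 counts in each HCT116 library, holds no value above 0.393 with another member.

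Among 10911 other genes with a symbol and a mean log2 CPM of at least 1 in both lines, those most like the members' mean over the 12 libraries were CCDC88C (r = 0.964), PRRG4 (r = 0.953) and RAPGEF5 (r = 0.949). For PKP3 these were GPN2 (0.966), LAD1 (0.965), which encodes the anchoring filament protein ladinin, and FAM166C (0.953). DSP was most like MYH9 (0.977), the heavy chain of non-muscle myosin, KBTBD11 (0.972) and USP36 (0.964), and PPL most like RAB11FIP4 (0.957), LYPD6B (0.945) and GSE1 (0.943). PKP2 was nearest to LSG1 (0.947), VAPA (0.943) and TNFRSF21 (0.932), and JUP to ARHGAP44 (0.938), ICOSLG (0.931) and DUSP9 (0.926).

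For the cadherins the nearest genes were BCOR (0.968), NAA30 (0.939) and SPTLC2 (0.919) for DSG2 and UNC13A (0.889), COL27A1 (0.888) and TMOD2 (0.874) for DSC2. EVPL was nearest to TNNI3 (0.910), RGL3 (0.857) and ANKRD10 (0.855). PKP1 was nearest to ACHE (0.943), IKZF5 (0.773) and LINC00857 (0.770), with a wide gap after the first. Its HCT116 values came from only 2 to 13 counts a library. With the authors' variance-stabilized values the 3 correlations were 0.772, 0.595 and 0.640, so they depend on how low counts are treated. Only 8 of these 30 genes were again among the 3 nearest by Spearman correlation, so the order of names is loose.

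The remaining desmosome genes were mostly absent. DSG1, DSG3, DSG4 and DSC1, cadherins of stratified epithelia, had at most 24 counts in any library. PERP, a tetraspan membrane protein of desmosomes, had 5347 to 6691 counts in HCT116 and 2954 to 4550 in SW480 and did not pass in any comparison within a line (log2 fold changes -0.18 to 0.05). DSC3, a desmocollin of basal layers, was at 8.25 and 7.71 CPM in parental HCT116 and at 3.15 and 4.33 CPM in CD44s-OE (log2 fold change -1.09, SE 0.24, adjusted p = 0.0272). It was the only one of this list of 6 to pass within a line, with 3 of them tested in HCT116 and 2 in SW480. In HCT116 CD44s-OE, 5.71% of all genes passed as lower. In SW480 the counts of DSC3 were 2 and 2 in parental cells, 10 and 8 with CD44s and 30 and 14 with CD44v6, against the limit of 6 counts.

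Of the other plakins, EPPK1 (epiplakin, a keratin-binding plakin) fell in CD44s-OE in both lines. It was at 30.3 and 23.7 CPM in HCT116 CD44s-OE against 65.4 and 48.6 CPM in parental cells (log2 fold change -1.08, SE 0.20, adjusted p = 0.0162). In SW480 it was at 3.34 and 2.49 CPM against 8.21 and 5.81 CPM (-1.28, SE 0.29, adjusted p = 0.0437). DST (dystonin) rose in HCT116, from 75.7 and 64.7 CPM to 129 and 192 CPM with CD44s (1.20, adjusted p = 0.00839) and 125 and 126 CPM with CD44v6 (0.84, adjusted p = 0.0892). MACF1, which links actin and microtubules, rose in HCT116 CD44s-OE (0.42, adjusted p = 0.0648) and fell in SW480 CD44s-OE (-0.74, adjusted p = 0.0861). In all, 2 of these 4 plakins rose and 1 fell in HCT116 CD44s-OE, and 0 rose and 2 fell in SW480 CD44s-OE. Of all genes tested, 8.45% were higher and 5.71% lower in HCT116 CD44s-OE, and 2.5% and 2.22% in SW480 CD44s-OE. The same shares apply to the CD44s-OE counts of the lists below, which are short.

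The adherens junction assembles beside the desmosome. Of 7 of its genes tested, 4 were lower and 0 higher in HCT116 CD44s-OE against parental (median log2 fold change -0.68), and 2 lower and 0 higher in SW480 (median -0.34). Of all genes, 5.71% were lower in the HCT116 comparison and 2.22% in that of SW480. CDH1 (E-cadherin) was at 22.2 and 14.6 CPM in HCT116 CD44s-OE against 65.2 and 46.7 CPM in parental cells (-1.61, adjusted p = 0.00541). In SW480 CD44s-OE it was at 1.32 and 0.890 CPM against 6.44 and 16.96 CPM (-3.43, adjusted p = 0.0832), with parental libraries that differed widely. CDH3 (P-cadherin) fell in both lines (-0.68, adjusted p = 0.0225 and -2.48, adjusted p = 0.00101), and NECTIN1 (-0.86) and NECTIN4 (-1.64) in HCT116. No list gene of this kind passed for CD44v6-OE against parental in either line.

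Keratins of simple epithelia, the filaments that DSP anchors, fell in SW480 CD44s-OE for 3 of 5 tested: KRT8 (-1.07, adjusted p = 0.0214), KRT18 (-0.92, adjusted p = 0.0333) and KRT19 (-0.70, adjusted p = 0.0742). KRT8 and KRT18 have many pseudogenes, so their counts are less certain. In HCT116 CD44s-OE, 1 of 6 was higher (KRT20, 1.13, adjusted p = 0.0495) and 1 lower (KRT7, -2.08, adjusted p = 0.00908). Of all genes, 8.45% were higher and 5.71% lower there, and 2.22% were lower in SW480 CD44s-OE. EPCAM, an epithelial surface protein, fell in CD44s-OE in HCT116 (-1.14, adjusted p = 0.00908) and in SW480 (-1.80, adjusted p = 0.000548).

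Of 10 tight junction genes, 3 were lower and 1 higher in HCT116 CD44s-OE against parental, and 3 lower and 0 higher in SW480, with CLDN7 lower in both (-0.84, adjusted p = 0.0257 and -2.49, adjusted p = 0.000572). Of 7 hemidesmosome genes, which encode the junction to the basement membrane, 2 were higher and 0 lower in HCT116 CD44s-OE, among them ITGB4 (1.14, adjusted p = 0.00217). In SW480 CD44s-OE, LAMA3 (-1.71, adjusted p = 0.00187) and LAMB3 (-1.86, adjusted p = 0.00195) were lower. In HCT116 CD44v6-OE, COL17A1 (1.82, adjusted p = 0.0248), LAMA3 (1.28, adjusted p = 0.0434), LAMB3 (1.02, adjusted p = 0.0968) and ITGB4 (0.57, adjusted p = 0.0772) were higher. Catenins and p120 relatives gave 1 higher of 5 in HCT116 CD44s-OE, ARVCF (0.50, adjusted p = 0.0616), and 0 of 5 in SW480, and cornified envelope genes gave 0 of 4 and 0 of 3. Beside the CD44s-OE counts of these lists, 8.45% of all genes were higher and 5.71% lower in HCT116. In SW480 the shares were 2.5% and 2.22%.

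ZEB1, a repressor of epithelial genes that binds E-boxes, had 0.929 and 2.13 CPM in parental HCT116, 16.3 and 10.02 CPM with CD44s and 3.63 and 3.60 CPM with CD44v6. The log2 fold change of CD44s-OE against parental was 3.11 (SE 0.39, adjusted p = 0.00368). In SW480 ZEB1 had 9.15 and 7.75 CPM in parental cells, 26.5 and 14.5 CPM with CD44s and 8.12 and 7.27 CPM with CD44v6 (1.26, SE 0.27, adjusted p = 0.0351). It was the only one of 5 transcription factors listed for the epithelial to mesenchymal transition to pass in these comparisons, with 3 of them tested in HCT116 and 2 in SW480.

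Promoter sequences were read for the members that a RefSeq table of GRCh38.p14 holds, which are 7 windows of 300 bases for DSP, PKP1, JUP, DSG2 and DSC2, from 250 bases before to 50 bases after a gene start. PKP2, PKP3, PPL and EVPL were not analysed here. These windows carry the coordinates of that build, not of hg19. For DSP, which was lower in CD44s-OE in both lines, and PKP1, which was near 0 in HCT116, the first 150 bases of the window are shown in the direction of the gene, with matches to the E-box CACCTG or its reverse complement CAGGTG in capitals. The DSP stretch is chr6:7541421-7541570 and the PKP1 stretch chr1:201283256-201283405, both on the plus strand.

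DSP: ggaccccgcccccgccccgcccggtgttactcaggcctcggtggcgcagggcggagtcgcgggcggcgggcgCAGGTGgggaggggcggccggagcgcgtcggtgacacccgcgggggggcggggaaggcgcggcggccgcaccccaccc
PKP1: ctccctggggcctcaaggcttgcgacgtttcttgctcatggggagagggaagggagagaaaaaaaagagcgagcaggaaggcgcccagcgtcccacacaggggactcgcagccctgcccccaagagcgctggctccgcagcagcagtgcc

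The E-box, the letters that ZEB and Snail factors bind, occurred on either strand in 20.6% of all 35116 promoters of that length in the table. The member windows held 60.7% to 77% G and C, against a median of 58.7% over all promoters. The share of 20.6% was not matched for this. The E-box occurred 2 times each in the windows of DSP, DSG2 and the second JUP start and 1 time in that of the first DSC2 start. It was not in the windows of PKP1, the first JUP start or the second DSC2 start. Each match is shown with 8 bases on either side, in the direction of the gene, since these letters are the part of the member promoters that the search turned on.

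DSP, 178 bases before the start, chr6:7541493-7541498: ggcgggcgCAGGTGgggagggg
DSP, 85 bases before the start, chr6:7541586-7541591: aaaccggcCAGGTGtggcctag
DSG2, 232 bases before the start, chr18:31497945-31497950: cacggtccCAGGTGcgagtgcg
DSG2, 116 bases before the start, chr18:31498061-31498066: ggcggccaCACCTGgagccgcg
JUP, 54 bases before the second start, chr17:41786025-41786030: tctggcccCACCTGccgagcag
JUP, 43 bases before the second start, chr17:41786014-41786019: ctgccgagCAGGTGagcgcacg
DSC2, 156 bases before the first start, chr18:31102572-31102577: ctttctgtCAGGTGggcctcag

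JUP and DSC2 are on the minus strand, DSP and DSG2 on the plus strand. The 2 JUP matches are 5 bases apart and on opposite strands. The motif AACCGGTT of Grainyhead-like factors, which is its own reverse complement, was in 0 of the 7 member windows and in 0.134% of all promoters. Of the genes with an E-box in a window, DSP passed as lower in CD44s-OE in both lines, while DSG2, DSC2 and JUP did not pass against parental in either. A match of letters is a description of the window, not evidence of binding.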

How the data were processed

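RNA-seq counts per gene were as the authors deposited them. Per the labels and methods, SOAPnuke cleaned the reads, STAR 2.7.9a placed them on hg19, Sambamba 0.8.0 marked duplicates, and reads were counted against GENCODE 35 with the featureCounts program of Subread 2.0.3, strand-specifically. The counting command in the file header sets no option that leaves out duplicates. Even counts were more frequent than odd ones, so each read of a pair appears to be counted. A second deposited table holds log2-like values that the authors made with the variance stabilizing transformation of DESeq2 1.30.1, and it was used only as an alternative for likeness. Totals of 43102156 to 52811889 counts per library put 6 counts at 0.114 to 0.139 CPM.

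CPM were scaled by TMM. Quasi-likelihood tests (edgeR 4.0.16, R 4.3.3, robust, filterByExpr, prior count 2) used the 6 libraries of a line, or all 12 between lines. Benjamini-Hochberg adjustment covered all genes tested, and an adjusted p under 0.1 passed. Comparisons share libraries. Intervals are 95%. The interval for the ratio of pooled counts covers counting error only and takes the counts as independent, which the 2 reads of a pair are not.

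Members and lists were chosen with earlier results of these data known. Named genes were the 9 members, CD44, up to 4 genes per list with the largest change among those that passed, and the 3 genes most like each pattern. Alternatives were DESeq2 1.42.0, RLE factors, no filter, a replicate block, an adjusted p under 0.05, fewer groups and leaving out each library. In simulated data, 66 or 67 of the more abundant genes were changed at each of the absolute log2 sizes 0.5, 1 and 2. Far fewer genes were changed there than passed in the real comparisons, so the shares below need not hold for them. Log2 changes of 1 were recovered for 79.1% of genes in HCT116, 64.2% in SW480 and 67.2% between parental lines. For changes of 0.5 the shares were 10.6%, 10.6% and 7.58%. Of the simulated calls, 17.6% were false in HCT116, 22.3% in SW480 and 10.7% between parental lines. In the simulation the fits of a single line thus exceeded the nominal share, and most calls of members within a line are of small size. A gene of the partner lists is not reported here.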

Additional observations from a re-analysis of the deposited data

Results flagged for a closer look

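For the desmosome members, 0 line differences passed in the tests across all genes, which does not show that the lines responded alike. Among the genes named from the partner lists, 14 such differences passed (edgeR, adjusted p under 0.1, SW480 minus HCT116 on the log2 scale), and these genes were named because they had changed in one comparison.

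CDH3, an adherens junction cadherin, fell more in SW480 than in HCT116 for CD44s-OE against parental, with a difference of -1.78 (adjusted p = 0.00977), and for CD44s-OE against CD44v6-OE, with a difference of -2.32 (adjusted p = 0.00990). For CD44s-OE against parental, the plakins DST (-1.19, adjusted p = 0.0547) and MACF1 (-1.14, adjusted p = 0.0310), the keratin KRT19 (-0.82, adjusted p = 0.0789) and ZEB1 (-1.83, adjusted p = 0.0882) also had a lower log2 fold change in SW480. So did the hemidesmosome genes ITGB4 (-1.91, adjusted p = 0.00922), LAMA3 (-1.76, adjusted p = 0.0111) and LAMB3 (-1.93, adjusted p = 0.0146). CLDN7, a tight junction claudin, differed by -1.63 for CD44s-OE against parental (adjusted p = 0.0165) and by -2.01 for CD44s-OE against CD44v6-OE (adjusted p = 0.0187). For CD44s-OE against parental, KRT7 had a higher log2 fold change in SW480 (2.29, adjusted p = 0.0206).

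DSC3 differed by 3.07 for CD44s-OE (adjusted p = 0.0515) and by 3.88 for CD44v6-OE (adjusted p = 0.0365) against parental. Its SW480 parental libraries held 2 counts each, under the limit of 6, so both values depend on the prior count and are no bound.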

How the results depend on the processing

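Of 151 counts of members under an alternative, 34 lay outside 1.5 times the reported count. Of 1320 values of single members, 35 lost their call, 39 gained one, 39 that had not passed changed sign and 0 that had passed reversed. The cause of these shifts was not tested.

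For HCT116 CD44s-OE against parental, 3 members passed, and 1 with only the compared groups. For HCT116 CD44s-OE against CD44v6-OE, 1 passed, 0 at an adjusted p under 0.05 and with only the compared groups, and 2 with no filter. For SW480 CD44v6-OE against parental, 0 passed, and 1 with no filter and with DESeq2. For SW480 CD44s-OE against CD44v6-OE, 2 passed, 1 at an adjusted p under 0.05 and with RLE factors, 4 with DESeq2, and 6 with no filter and with only the compared groups. Of all genes, 271 of 17539 passed as lower there in the main fit and 487 of 17196 with DESeq2. With no filter 636 of 34675 did, and with only the compared groups 821 of 17140. The line difference in the isoform contrast gave 2 with no filter against 0. Of 30 genes named for likeness, 8 were again named by Spearman correlation.

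Leaving out 1 library gave 0 to 6 members for HCT116 CD44s-OE against parental, 0 to 3 for HCT116 CD44s-OE against CD44v6-OE, 1 to 4 for SW480 CD44s-OE against parental, 0 to 2 for SW480 CD44v6-OE against parental, 0 to 6 for SW480 CD44s-OE against CD44v6-OE, 6 to 7 between parental lines and 0 to 1 for the line difference with CD44s-OE. The number of all genes that passed also changed widely in these fits, so the ranges are not particular to the members. Libraries with the same replicate number did not deviate together (correlations from -0.20 to 0.18), so the numbers do not pair them. With a replicate block, 9 of 10 counts stayed the same, and SW480 CD44s-OE against CD44v6-OE gave 1, PPL. Halving the counts, chosen after seeing the data, changed no count. With 2 libraries a group, and PKP1 in HCT116 and DSC2 in SW480 at low counts, few small changes could be detected.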
